A study of Homo sapiens with 15 samples.

Results

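Antigen presentation and interferon signalling were described through 47 genes. They were chosen by name for their place in these pathways, with earlier results of these data known. They are 47 of the 58302 genes counted in C4-2B cells. All 47 were found in the deposited tables and all are protein-coding. C4-2B is an established human prostate adenocarcinoma line derived from LNCaP, labelled wild type and grown in RPMI with fetal bovine serum, and its labels name no siRNA and no drug. The series is labelled for 15 RNA-seq libraries in 5 groups, and the 3 C4-2B replicates were analysed here, so every value below describes this line alone and no contrast with neuroendocrine-like or Pax5-depleted cells was made. The neuroendocrine-like groups labelled DKD scr, DKD siPax5, ER scr and ER siPax5 were not analysed here. Nothing in the labels says whether the 3 replicates came from separate cultures, so the spread between them may be technical. One line stands for one tumour lineage, and in bulk RNA fewer cells expressing a gene and less RNA of it per cell cannot be told apart.

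Class I molecules, a polymorphic heavy chain paired with beta-2-microglobulin, carry peptides cut by the proteasome to the surface of almost every nucleated cell. Peptides reach them through the TAP transporter and are fitted with the help of tapasin and trimming peptidases. Class II molecules are normally made by antigen-presenting immune cells, under the control of CIITA. Interferons bind paired receptor chains, JAK kinases on these chains phosphorylate STAT proteins, and STAT and IRF factors then switch on interferon-stimulated genes through a promoter element called ISRE. Cytosolic sensors of viral RNA and DNA stand at the start of interferon production.

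Sequences with the letters of this element are shown first, because they recur before genes of both pathways. Promoters (250 bases before to 50 after the gene start, RefSeq, GRCh38.p14) were matched for 37 of the 47 members. The ISRE-like core searched was a pair of GAAA runs with any 2 bases between them, on either strand, where adjoining matches may overlap. It was present in 16 of these 37 members and in 4.38% of the 27305 genes with a promoter. By role it was found in 7 of 8 antigen processing genes, in 5 of 6 interferon-stimulated genes, in 2 of 5 class I genes (B2M and HLA-F), in 1 of 2 sensors, in CD274, in 0 of 7 receptor and JAK genes and in 0 of 4 class II genes. STAT2, STAT3, IRF1 and IRF9 had no match either. A second motif, TTCNNNGAA, the core of the STAT-binding GAS element, was present in 7 members and in 9.38% of genes. The stretches below are those that lie outside the gene's annotated exons, 1 for each gene, on the gene's own strand and with complete ISRE-like matches in capitals.
ISG15 (chr1:1013359-1013418, plus strand): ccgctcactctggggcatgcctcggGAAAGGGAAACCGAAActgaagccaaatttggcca
IFI6 (chr1:27672273-27672332, minus strand): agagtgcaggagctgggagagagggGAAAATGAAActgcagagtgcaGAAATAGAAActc
IFIT1 (chr10:89392482-89392541, plus strand): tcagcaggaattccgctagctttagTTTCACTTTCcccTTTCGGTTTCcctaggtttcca
IFIT3 (chr10:89327816-89327875, plus strand): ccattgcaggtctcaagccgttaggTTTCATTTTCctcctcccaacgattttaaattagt
IFIH1 (chr2:162318809-162318868, minus strand): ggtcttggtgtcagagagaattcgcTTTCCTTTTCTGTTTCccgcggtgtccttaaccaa
B2M (chr15:44711348-44711407, plus strand): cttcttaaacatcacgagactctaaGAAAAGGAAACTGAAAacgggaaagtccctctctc
CD274 (chr9:5450309-5450368, plus strand): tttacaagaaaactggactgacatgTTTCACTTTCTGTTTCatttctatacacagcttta
The match is a description of letters and not of a bound site. Genes that carry it were spread over a wide range of levels in these cells, from CD274 at 0.838 TPM to ISG15 at 127 TPM, with a median of 7.59 TPM for the 16 with a match. The 21 members with a promoter and no match ran from 0.318 to 187 TPM with a median of 4.76 TPM. TPM is the count of a gene per base of its exons, scaled to the same sum in every library.

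Total counts in genes were 44992971, 49569026 and 46232076 for replicates 1, 2 and 3. The cells carried the markers of luminal prostate epithelium, with KLK3 at 1988 TPM, FOLH1 at 397, KLK2 at 321, KRT18 at 254, TMPRSS2 at 201 and KRT8 at 197 (mean TPM, n = 3). Leukocyte markers were near 0, with 2 counts of PTPRC, 4 of CD3E and 3 of CD79A over the 3 libraries. ITGAM was at 0.160 TPM, CD14 at 0.215 and LYZ at 2.08, and the 7 leukocyte markers summed to between 2.11 and 3.36 TPM per library. Of the 6 fibroblast and endothelial markers, COL1A2 had 0 counts, CDH5 6 and PECAM1 14. COL3A1 was at 0.389 TPM, VWF at 2.91 and COL1A1 at 7.09.

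Of the 47 members, 37 had at least 1 TPM in all 3 libraries, a level reached by 61.2% of the 19708 protein-coding genes and 32.8% of all genes listed. Their median was 6.44 ± 0.149 TPM (SD, n = 3), beside 5.86 ± 0.0461 TPM over protein-coding genes. The 10 below this level were HLA-G, PSMB9, CIITA, HLA-DRA, HLA-DRB1, HLA-DPA1, CD274, JAK3, STING1 and CGAS. By mean TPM, HLA-C was the highest member, followed by ISG15, B2M, TAPBP and STAT3, and no pair of neighbours in that order overlapped between libraries. Further down the order neighbours were often not separated: 29 of the 46 neighbouring pairs had overlapping ranges.

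Class I genes were expressed unevenly, with HLA-C, B2M, HLA-B and HLA-E above the protein-coding median of 5.86 TPM and HLA-F and HLA-G below it. HLA-C (ENSG00000204525, chromosome 6, 31268749 to 31272130) was at 193, 188 and 179 TPM in replicates 1, 2 and 3. Its mean of 187 ± 7.11 TPM (SD, n = 3) was higher than that of 97.1% of protein-coding genes. HLA-B, the neighbouring classical heavy chain, was at 48.8, 46.7 and 49.7 TPM. HLA-C was above HLA-B in each library, by 3.86 ± 0.230 times (SD, n = 3). HLA-E, the non-classical chain read by natural killer cells, was at 32.3, 34.6 and 31.8 TPM.

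The other non-classical chains were low. HLA-F was at 3.45 ± 0.230 TPM (SD, n = 3). HLA-G, which is best known from placenta, gave 12, 12 and 19 counts, a level of 0.542 ± 0.164 TPM (SD, n = 3). The light chain B2M (ENSG00000166710, chromosome 15, 44711477 to 44718877) was at 94.1, 93.4 and 91.8 TPM, with a CV of 1.27% between libraries. HLA-C was 2.00 ± 0.0512 times as high as B2M per exon base (SD, n = 3), and the 5 heavy chains summed to 272 ± 6.80 TPM against 93.1 ± 1.18 TPM for B2M (SD, n = 3). These ratios depend on exon length, which is 6089 bases for B2M and 2507 for HLA-C. In CPM, which leaves gene length out, B2M was the higher, at a mean of 182 against 150 for HLA-C.

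Heavy chain genes resemble each other, and reads that align to several places were not counted. Of all 50-base stretches in the exons of HLA-B, HLA-C, HLA-E, HLA-F and HLA-G, between 3.76% and 8.10% occur again in the primary chromosomes of GRCh38. Exon bases under another gene, where no read was counted, made up 18.9% of HLA-B, 28.5% of HLA-F and 25.8% of HLA-G. With gene lengths that leave such bases out, HLA-B was at 56.9 TPM. These levels are also read against 1 reference haplotype, and reads lost where the HLA alleles of C4-2B differ from it were not measured.

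Peptide supply was uneven as well. TAPBP, which encodes tapasin, was at 86.1, 84.9 and 85.3 TPM (ENSG00000231925, chromosome 6, 33299694 to 33314387). The transporter subunits TAP1 and TAP2 were at 19.1 ± 1.28 and 6.57 ± 0.315 TPM (SD, n = 3 each), and TAP1 was above TAP2 in each library by 2.91 ± 0.289 times (SD, n = 3). Exons of another gene cover 32.3% of TAP2, and leaving these bases out of its length gave 9.25 TPM, still below TAP1. The trimming peptidase ERAP1 was at 8.60 ± 0.805 TPM and its neighbour ERAP2 on chromosome 5 at 1.42 ± 0.217 TPM (SD, n = 3 each). NLRC5, the transactivator of class I genes, was at 1.53, 1.49 and 1.49 TPM, a level 1.89 ± 0.245 times that of CIITA (SD, n = 3).

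**Figure D1:**
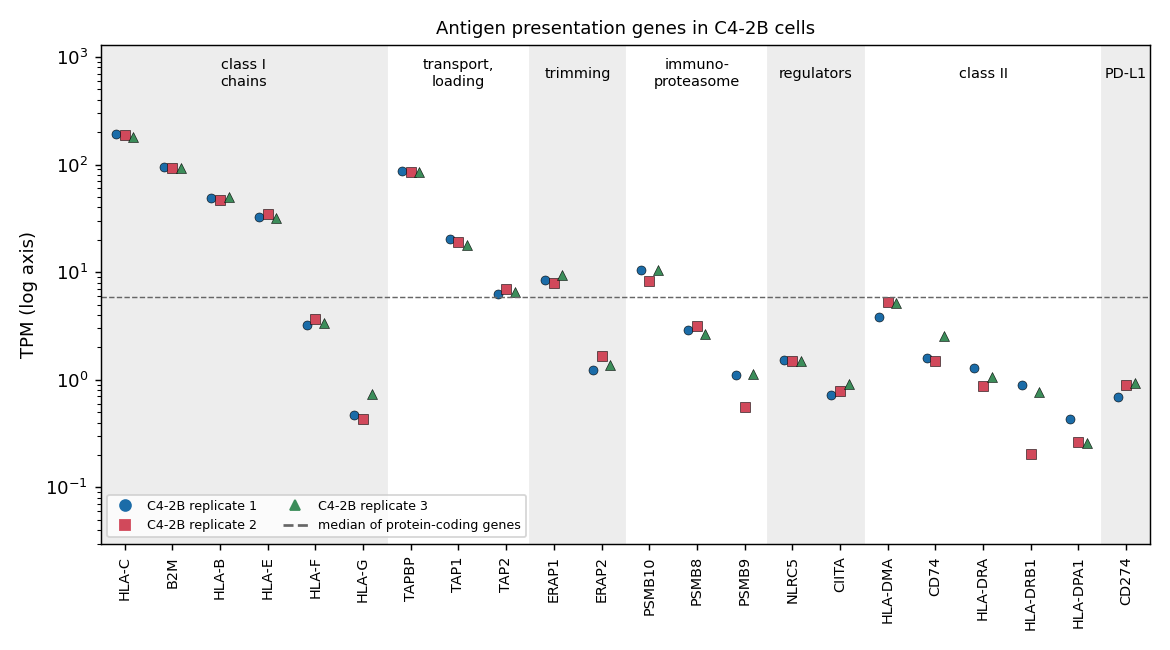
TPM of 22 antigen presentation genes in each C4-2B replicate on a log axis, grouped by role and ordered by mean within each role. The dashed line is the median of protein-coding genes at 5.86 TPM, and the class II genes and CD274 all lie below it while HLA-C, B2M, HLA-B and HLA-E lie above.

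The catalytic subunits of the immunoproteasome, which interferon induces, were each lower than the constitutive subunit whose place they take. PSMB8 and PSMB9 were below the protein-coding median and PSMB10 was above it. PSMB8 (ENSG00000204264, chromosome 6, 32840717 to 32844703) was at 2.92, 3.16 and 2.63 TPM, while PSMB5, whose place it takes, was at 169, 173 and 171 TPM. The log2 ratio of TPM + 1 was -5.46 ± 0.09 (SD, n = 3), and without the added 1 PSMB5 was 59.1 ± 5.25 times as high. PSMB9 had 49, 27 and 51 counts, at 1.10, 0.552 and 1.12 TPM. It stood at -6.57 ± 0.29 against PSMB6 on the same scale (log2, SD, n = 3), with PSMB6 at 181 ± 6.42 TPM. Replicate 2 had the lowest PSMB9 level, and the PSMB6 level was between 154 and 336 times that of PSMB9 in the 3 libraries.

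PSMB10 was the highest of the interferon-induced subunits at 10.5, 8.20 and 10.4 TPM. PSMB7 was 19.99 ± 2.64 times as high as PSMB10, a log2 ratio of -4.18 ± 0.17 (SD, n = 3). Each constitutive subunit was above its counterpart in every library. Exon overlap with other genes covers 34.8% of PSMB10, 21.2% of PSMB8 and 5.66% of PSMB9, and with lengths outside overlaps the log2 ratios were -3.61, -5.18 and -6.50 for PSMB10, PSMB8 and PSMB9.

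TAP1 and PSMB9 are neighbours on chromosome 6 and are known to be transcribed in opposite directions from a shared start region. They differed in level, with TAP1 at 20.3, 19.1 and 17.8 TPM and PSMB9 at the levels given above. TAP1 was 22.99 ± 10.2 times as high (SD, n = 3), with the largest ratio in replicate 2, where PSMB9 had 27 counts.

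**Figure D2:**
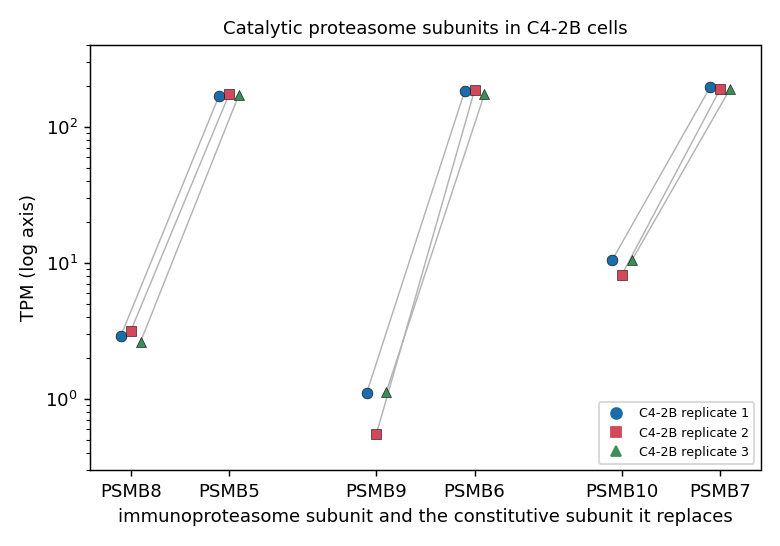
TPM of 3 immunoproteasome subunits and of the constitutive subunits they replace, on a log axis, with a line joining both values of each C4-2B replicate. PSMB8, PSMB9 and PSMB10 lie between 0.552 and 10.5 TPM, and PSMB5, PSMB6 and PSMB7 lie above 100 TPM in every library.

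Of the other genes of peptide loading fixed for this description, 9 of 9 had at least 1 TPM in all 3 libraries. The share among protein-coding genes was 61.2%. The chaperones CALR (calreticulin) and CANX (calnexin) were the highest at 1655 ± 28.1 and 439 ± 8.16 TPM, and the lowest were PSME2, a subunit of the proteasome activator PA28, at 37.2 ± 1.06 TPM and TAPBPL at 12.2 ± 0.392 TPM (SD, n = 3 each). CALR was the one gene of the additional pathway lists past the threshold of the test between libraries described below, with an adjusted p of 9.6e-05.

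Class II genes were low in all 3 libraries. HLA-DMA, which helps load class II molecules, was the highest at 3.87, 5.28 and 5.13 TPM. CD74, the invariant chain, was at 1.603, 1.48 and 2.57 TPM, highest in replicate 3. HLA-DRA (chromosome 6, 32439842 to 32445046) had 24, 18 and 20 counts, at 1.29, 0.883 and 1.06 TPM.

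HLA-DRB1 had 16, 4 and 14 counts, at 0.898, 0.204 and 0.771 TPM, and HLA-DPA1 had 36, 24 and 22, at 0.432, 0.262 and 0.259 TPM. Of the 50-base stretches in HLA-DRB1 exons, 11.4% occur elsewhere in the genome. CIITA, the class II transactivator (ENSG00000179583, chromosome 16, 10866222 to 10932281), had 151, 183 and 194 counts, at 0.718, 0.793 and 0.906 TPM. The 5 class II genes summed to between 8.09 and 9.79 TPM per library, in the libraries whose leukocyte markers summed to between 2.11 and 3.36 TPM, of which LYZ made up 2.08 TPM on average. The part of other cells in these levels was not tested.

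The class I and class II lists were compared on the log2(TPM + 1) scale. Class I, taken as the 5 heavy chains and B2M, was above class II, taken as HLA-DRA, HLA-DRB1, HLA-DPA1, HLA-DMA and CD74, by 4.15, 4.45 and 4.31 in list medians, with a mean of 4.30 ± 0.15 (SD, n = 3). The class I median was 40.7 ± 0.0835 TPM and the class II median 1.08 ± 0.206 TPM (SD, n = 3). The lists overlap at their edges. HLA-DMA was above HLA-F and HLA-G, HLA-G was by mean below 4 of the 5 class II genes although its range overlapped that of HLA-DRB1, and in 25 of 30 pairs the class I gene was the higher. Adding the processing genes and NLRC5 to class I and CIITA to class II lowered the difference to 2.29. No test was run, since genes of a list are not replicates.

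Among the 12 further class II pathway genes, 3 had at least 1 TPM in all 3 libraries, and all 3 were parts of the RFX complex that binds class II promoters. RFX5 was at 65.5 ± 0.750 TPM, RFXANK at 35.6 ± 2.35 TPM and RFXAP at 11.1 TPM (SD, n = 3). The lowest were HLA-DQA1 and HLA-DOB with 2 counts each. RFX subunits were thus measured well above 1 TPM beside a CIITA level under 1 TPM, where CIITA has 14503 exon bases. In CPM, which leaves gene length out, CIITA was at 3.75 and RFXAP, RFXANK and RFX5 at 8.18, 28.6 and 96.5.

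CD274, which encodes the checkpoint ligand PD-L1 (ENSG00000120217, chromosome 9, 5450503 to 5470566), had 41, 58 and 57 counts. Its level was 0.688, 0.887 and 0.939 TPM, below 1 TPM in each library.

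The 4 chains of the type I and type II interferon receptors were each above 1 TPM in every library, with the chains of each pair at different levels. IFNAR1, one chain of the type I receptor (ENSG00000142166, chromosome 21, 33324477 to 33359862), was at 40.5, 43.5 and 44.3 TPM. IFNAR2, its partner, was at 6.97, 6.51 and 6.70 TPM. IFNAR1 was higher by 6.37 ± 0.484 times (SD, n = 3), but 48.4% of the exon bases of IFNAR2 lie under other genes, among them the readthrough gene IFNAR2-IL10RB, and outside them IFNAR2 was at 12.4 TPM. The type II chains IFNGR1 and IFNGR2 were at 33.0 ± 1.63 and 17.9 ± 0.860 TPM, and IFNGR1 was 1.85 ± 0.0352 times as high (SD, n = 3). IFNLR1, the chain specific to the type III receptor, was low with 5, 4 and 4 counts.

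The JAK kinases spanned 2 orders of magnitude. TYK2 was at 38.2, 37.3 and 37.1 TPM. JAK1 (ENSG00000162434, chromosome 1, 64833229 to 64966504), the kinase that serves both type I and type II receptors, was at 4.54, 4.77 and 4.79 TPM. TYK2 was 7.99 ± 0.368 times as high as JAK1 and JAK2 was 1.76 ± 0.0584 times as high (SD, n = 3 each), and in every library both were above JAK1.

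JAK1 shares 0.0633% of its exon bases with another gene and none of its 50-base stretches occur elsewhere, so these sources of lost reads were small for it. JAK3, known from lymphoid cells, gave 26, 25 and 56 counts, a level of 0.350 ± 0.179 TPM (SD, n = 3). Of its 107 counts, 56 came from replicate 3.

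Signal transducers were mostly well expressed. STAT3 was at 71.7, 72.2 and 71.2 TPM, the most even of the members between libraries with a CV of 0.659%. STAT2, the partner in the complex that binds ISRE, was at 27.7, 27.0 and 28.2 TPM. IRF9, the DNA-binding member of that complex (ENSG00000213928, chromosome 14, 24161053 to 24166565), was at 1.15, 1.37 and 1.12 TPM. STAT2 was 22.99 ± 2.92 times as high as IRF9 (SD, n = 3), although 48.4% of IRF9 exon bases lie under another gene, and outside them its level was 2.25 TPM.

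IRF3, which is activated by phosphorylation and is made without stimulation in most cells, was at 47.8, 47.2 and 48.4 TPM. IRF7, which amplifies type I interferon production, was at 19.6 ± 0.963 TPM and IRF2 at 14.8 ± 1.13 TPM (SD, n = 3 each). IRF1, an early interferon target, was at 2.75, 2.42 and 2.79 TPM. In the wider list of 16 cytokine signalling genes, 9 (56.25%) had at least 1 TPM in all 3 libraries, beside 61.2% of protein-coding genes. IL6ST, the shared receptor chain of the interleukin-6 family, was at 34.2 ± 2.03 TPM (SD, n = 3), and IRF8 and IRF4, known from blood cells, were the lowest with 2 and 3 counts.

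**Figure D3:**
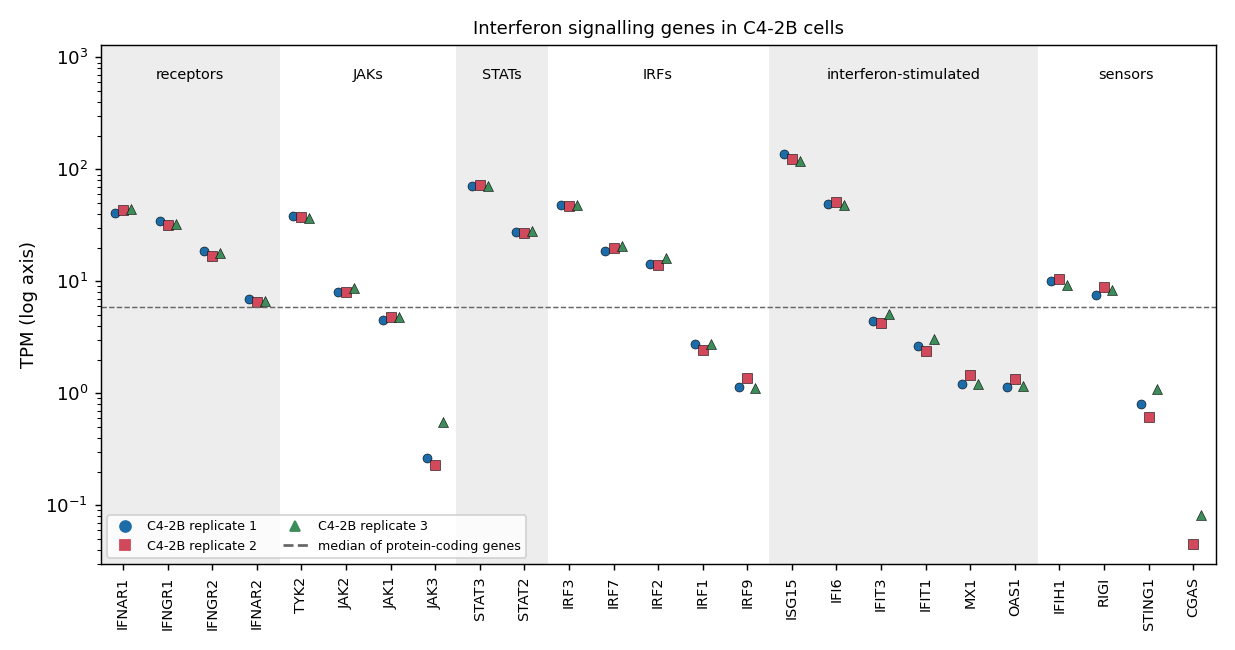
TPM of 25 interferon signalling genes in each C4-2B replicate on a log axis, ordered by mean within each role, with the median of protein-coding genes as a dashed line at 5.86 TPM. ISG15 and IFI6 lie above 48 TPM while IFIT3, IFIT1, MX1 and OAS1 lie below the dashed line, and the CGAS value of replicate 1, which is 0, is not drawn.

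The 6 interferon-stimulated members lay at very different levels. ISG15, a ubiquitin-like modifier (ENSG00000187608, chromosome 1, 1001138 to 1014541), was at 138, 125 and 118 TPM. IFI6, a mitochondrial and antiviral protein, was at 48.8, 50.6 and 48.1 TPM. The other 4 had means under 5 TPM. IFIT3 and IFIT1, of which IFIT1 binds viral RNA, were at 4.56 ± 0.457 and 2.704 ± 0.330 TPM (SD, n = 3 each).

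MX1, a GTPase that blocks viral replication, was at 1.22, 1.45 and 1.21 TPM, and OAS1, which makes the activator of RNase L, was at 1.14, 1.33 and 1.16 TPM. The ranges of MX1 and OAS1 overlapped. ISG15, IFI6, IFIT3, IFIT1 and MX1 all have the ISRE-like match, and their mean levels differed from 1.29 TPM for MX1 to 127 TPM for ISG15.

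Of 22 further interferon-stimulated genes, 15 (68.2%) had at least 1 TPM in all 3 libraries, beside 61.2% of protein-coding genes. The median of the 22 was 4.46 ± 0.363 TPM (SD, n = 3). IFITM3, a membrane protein that restricts virus entry, was highest at 67.5 ± 2.56 TPM, followed by DTX3L at 30.7 ± 0.933 TPM (SD, n = 3 each). IFITM3 has close relatives beside it and 21.3% of its exon bases under another gene, so its count is uncertain. MX2 had 64 counts in all and XAF1 had 4.

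The OAS family was singled out after its values were seen. OAS3 was at 29.5 ± 0.913 TPM and OASL at 15.2 ± 0.332 TPM, against 1.21 ± 0.104 TPM for OAS1 and 0.213 ± 0.0547 TPM for OAS2 (SD, n = 3 each). OAS1, OAS3 and OAS2 lie side by side on chromosome 12.

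The 6 interferon ligand genes examined were not detected or nearly so, and other interferon genes were not examined. IFNA1, IFNB1, IFNE and IFNG had 0 counts, which allows up to 0.0769, 0.0773, 0.0450 and 0.0545 TPM for 3 counts over the 3 libraries. IFNK had 4 counts, each of them in replicate 2, and IFNL1 had 2, 1 and 6 counts.

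Receptors and JAKs were set against the genes downstream of them, again on the log2(TPM + 1) scale. The 8 receptor and JAK genes had a median of 13.1 ± 0.488 TPM and the 13 STAT, IRF and interferon-stimulated genes 14.8 ± 1.13 TPM (SD, n = 3). The difference of list medians was -0.21, -0.23 and -0.33 per library, with a mean of -0.26 ± 0.07 (SD, n = 3), and the receptor or JAK gene was the higher in 52 of 104 pairs. The sign depends on the choice of list and scale. It was +0.27 in CPM and +0.14 with lengths outside exon overlaps.

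Split by role, receptors and JAKs were 1.55 ± 0.08 above the 6 interferon-stimulated genes and 0.64 below the 7 STATs and IRFs, with a difference of -0.64 ± 0.07 (log2, SD, n = 3 each). Receptors were above JAKs by 1.80 ± 0.09 (log2, SD, n = 3). The interferon-stimulated list thus had a median of 3.63 ± 0.391 TPM although it holds ISG15.

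Among the members, the RNA sensors IFIH1 and RIGI were higher than CGAS and STING1. IFIH1 and RIGI were at 10.0, 10.5 and 9.24 TPM and at 7.61, 8.99 and 8.37 TPM. CGAS and STING1 of the DNA-sensing pathway were low. CGAS, which makes the second messenger cGAMP on binding DNA (ENSG00000164430, chromosome 6, 73413515 to 73452276), had 0, 3 and 5 counts. The 95% exact Poisson interval around these 8 counts ran from 3.45 to 15.8, and its mean was 0.0423 TPM, or 0.0227 TPM without replicate 3. STING1, the receptor of cGAMP, had 45, 38 and 62 counts, at 0.806, 0.620 and 1.09 TPM.

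Every IFIH1 and RIGI value was above every STING1 and CGAS value. Of 10 further sensing genes, 6 had at least 1 TPM in all 3 libraries. TLR3, an RNA sensor outside the members, was at a mean of 0.733 TPM, below the STING1 mean of 0.839 TPM. ADAR, which edits double-stranded RNA, was highest at 165 ± 2.63 TPM, and MAVS, the adaptor of RIGI and IFIH1, was at 62.1 ± 1.03 TPM (SD, n = 3 each). ZBP1 had 0 counts, which allows up to 0.0123 TPM. TREX1 is listed with 0 counts too, but 100% of its exon bases lie under another gene, so no read could be counted for it.

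Differences among the replicates were tested gene by gene with a chi-square of the 3 counts against scaled library sizes, divided by 2 because both mates of a pair were counted. This compares libraries and not conditions. Of the 46 members with at least 30 counts, 0 had a Benjamini-Hochberg adjusted p under 0.05, beside 0.792% of the 22229 genes tested. At an unadjusted p under 0.05 there were 7 members, beside 11.3% of genes. They were HLA-C, ISG15, JAK3, CD74, ERAP1, IFNAR1 and TAP1, with chi-square adjusted p-values from 0.111 for ISG15 and 0.112 for HLA-C to 0.407 for TAP1.

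Without this division, 9 members passed, beside 17.3% of genes. Without replicate 2, 2 members (HLA-C and ISG15) passed, beside 1.11% of genes, and leaving out replicate 1 or 3 gave 0. The median range between the highest and the lowest library was 0.20 (log2) for members, 0.20 for all genes tested and 0.11 for the protein-coding genes among them. Among the 38 members with a mean of at least 1 TPM, the CV ranged from 0.659% for STAT3 to 31.7% for CD74, with a median of 5.69%.

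**Figure D4:**
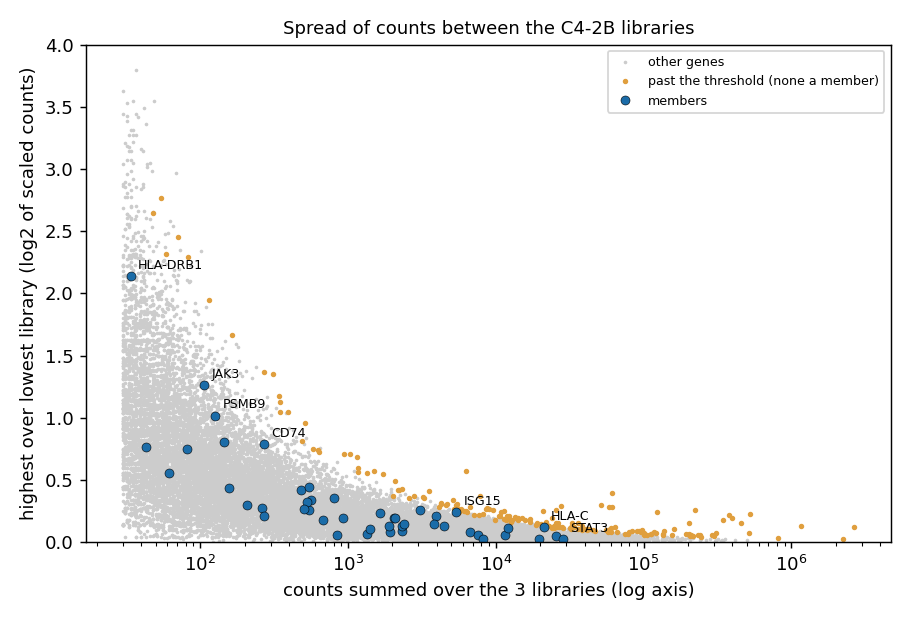
Highest over lowest library (log2 of counts scaled by library size) against the counts summed over the 3 C4-2B libraries (log axis), with 46 members in blue over all genes tested in grey and genes past the threshold in orange. STAT3 lies lowest of the members at 0.03, HLA-DRB1, JAK3 and PSMB9 lie highest at 2.14, 1.26 and 1.02, none is orange, and 6 other genes above the axis limit of 4 and 5 with 0 counts in a library are not drawn.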

How the data were processed

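RNA-seq was carried out on total RNA of C4-2B cells after ribosomal RNA depletion, as paired-end directional libraries. The authors deposited unnormalised counts, 1 number per gene and library. Per the file headers and labels, the authors aligned reads to GRCh38 with STAR 2.7.0f and counted them with featureCounts 1.6.3 and Ensembl release 90. No strand was set and mates were counted separately, so a gene and its antisense partner cannot be told apart, and reads over exons of 2 genes or at several places were not counted. Gene length, another value per gene that the authors deposited, is the union of exons.

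From these, TPM and CPM were computed over all 58302 genes, 57532 of them with a matched symbol. TPM sums include RN7SL2, at 18.9% to 20.3% of TPM per library, which lowers all other levels. Levels of lists were compared as log2(TPM + 1), so differences between low genes come out too small. Libraries were compared by a chi-square test with 2 degrees of freedom on library sizes scaled by TMM (edgeR 4.0.16), divided by 2, over genes with at least 30 counts, with Benjamini-Hochberg adjustment and a threshold of 0.05. The test was run on simulated data, with the outcome not reported here. Intervals are exact Poisson intervals at 95% and the limit for 0 counts is the TPM of 3 counts. Both cover counting error only and are too narrow for mates counted separately. Exon overlap was taken from the deposited coordinates, and repeated 50-base stretches from hg38.

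The members and lists were chosen with earlier results of these data known. All members are accounted for. Values per library are given for up to 3 genes of a role, for members under 1 TPM and for a few more that comparisons rest on. Of the further pathway lists, the 2 highest and 2 lowest genes and any past the threshold between libraries were to be named, and of the markers all, except that 1 gene of the pathway lists and 1 marker are not reported here. Other names were chosen after their values were seen. Alternatives were other scales, lengths, thresholds and pseudocounts and leaving out each replicate. Those for single members and for the further pathway lists were chosen after the data were seen.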

Additional observations from a re-analysis of the deposited data

How the results depend on the processing

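No paired analysis was possible because the analysis covers the C4-2B group alone, so there is no second group to pair with. The class I minus class II difference of 4.30 (log2) stayed positive under each alternative run, at 3.37 with list means, 5.10 with a pseudocount of 0.1, 4.65 in CPM, 4.53 with the 10 most abundant and the mitochondrial genes left out of the TPM sum, and 2.29 with processing genes and regulators added. The receptor and JAK minus downstream difference of -0.26 changed sign in 5 settings. With list means it was 0.0017 ± 0.025 (SD, n = 3), within its spread of 0. It was 0.27 in CPM, 0.14 with lengths outside overlaps, 1.55 against interferon-stimulated genes alone and 0.51 with sensors added. The last pair of settings changes the list itself, and for the others the cause was not tested. PSMB8 over PSMB5 was -5.83 with a pseudocount of 0.1, -5.09 in CPM and -5.18 with lengths outside overlaps. PSMB9 over PSMB6 was -7.52 and -5.49 with the first 2 of these, and PSMB10 over PSMB7 was -3.61 with the last. The number of members differing between libraries was 9 with the chi-square not divided, where 3835 genes passed in place of 176, and 0 to 2 with 1 replicate left out. It stayed at 0 with relative log expression size factors, total counts or minimums of 10 or 1 counts. From 31 to 42 members counted as expressed under the thresholds and scales run, beside 57.2% to 64.9% of protein-coding genes. Of the 75 further pathway genes, from 41 to 46 did. In the main setting their share was 56.0%, beside 61.2% of protein-coding genes. Leaving the abundant genes out of the TPM sum multiplied member levels by 1.45. Some levels under 1 TPM rest on few counts, with 8 for CGAS and 34 for HLA-DRB1 over the 3 libraries, against 528 for CIITA. CGAS moved by over 1.5 times without replicate 3.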
